A study of Macaca nemestrina with 15 samples.

Results

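The CD300 receptors are a small family of immunoglobulin-like receptors on the surface of blood and tissue leukocytes, and 6 of their genes, *CD300H*, *CD300A*, *CD300C*, *CD300E*, *CD300LB* and *CD300LF*, were followed in peripheral blood mononuclear cells (PBMCs) of pig-tailed macaques treated with islatravir (ISL). ISL is a nucleoside reverse transcriptase translocation inhibitor developed against HIV. The 6 genes are 6 of the 28865 features of the deposited table of read counts, and were found by an exact match of their names. The family was taken up because *CD300H* was selected on its lower level at week 18 than before treatment in these same libraries. All values of *CD300H* are therefore given as a description, with no test. The 5 relatives were chosen by family name, so their tests are given. The question was whether the lower level of *CD300H* extended to its relatives.

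The libraries came from 5 female animals (*Macaca nemestrina*), with 3 samples each, labelled pre-treatment, week 12 and week 18. The animals received 30 mg/kg of ISL by gavage once a week for 12 weeks. The study describes the week 18 sample as taken after dosing had ended. No untreated animals were sequenced, so a difference between time points cannot be told apart from the effect of time, handling or sampling. Dates written into the library names lie 56 or 57 days apart for an animal's pre-treatment and week 12 libraries and 84 days apart for pre-treatment and week 18, less than the labelled weeks. The last 2 libraries of an animal lie 27 or 28 days apart. What these dates mark was not stated, and the study's text is not uniform about how long after the end of dosing the last sample was taken. The labelled time points are used, and the interval behind "week 18" is uncertain. If the dates mark sampling, 84 days is no longer than the 12 weeks of dosing. Whether the week 18 sample was taken off the drug is then uncertain too.

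CD300 receptors work as paired receptors, in which members with similar outer domains send opposite signals. CD300A and CD300LF carry inhibitory motifs in their tails that recruit the phosphatases SHP-1, SHP-2 and SHIP-1. CD300C, CD300E, CD300LB and CD300H have short tails and signal through adaptor proteins such as DAP12 and the Fc receptor gamma chain, which engage the kinase SYK. Several members bind phospholipids exposed on dying or activated cells. In human blood the family is found mostly on monocytes, dendritic cells and granulocytes, with CD300A also on natural killer (NK) and T cells, and CD300H has been described on CD16+ monocytes and dendritic cells.

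The total count per library ranged from 5610597 to 10379572, with a median of 8871860, and the week 12 and week 18 libraries of animal Z15303 were the shallowest. All 6 genes passed the filter on low counts, as did 12880 features of the table. *CD300H* had 628 to 2823 counts per library, *CD300A* 204 to 778, *CD300C* 237 to 1076 and *CD300LF* 267 to 893. *CD300LB* had 14 to 74 counts and *CD300E* 1 to 23, so their values carry a wide counting error. Levels are given in CPM, a gene's count scaled by the size of its library, and were not compared between genes because gene lengths were not used. Markers of T, B and NK cells and of monocytes were all detected, as PBMCs are a mixture of these cells. *FCGR3A*, the gene of CD16, was not found under that name or as *FCGR3*. In such mixed samples, fewer cells of a type and less RNA per cell cannot be told apart.

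*CD300H*, the activating member, was lower in every animal at both later time points. Before treatment its level was 132 CPM in animal Z15228, 174 in Z13076, 284 in Z15339, 313 in Z15303 and 167 in Z15408. At week 12 the same animals had 101, 111, 228, 199 and 157 CPM. At week 18 they had 81.3, 123, 188, 187 and 158 CPM. Animals Z15339 and Z15303 started highest and animal Z15408 barely differed over time, so the 3 time points overlapped while each animal lay below its own start. The mean level was 214 ± 79.8 CPM (SD, n = 5) before treatment, 159 ± 55.0 at week 12 and 148 ± 45.5 at week 18.

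Fitted with the animal as a term, the log2 fold change of *CD300H* was −0.42 (SE 0.11) at week 12 vs. pre-treatment. At week 18 vs. pre-treatment it was −0.52 (SE 0.11), which corresponds to 0.696 times the starting level. Of all features tested, 3.45% were lower in 5 of 5 animals at week 12 and 3.49% at week 18, and nothing is read from this for *CD300H* because it was selected on that difference. Within animals the log2 change at week 18 was −0.69 in Z15228, −0.49 in Z13076, −0.60 in Z15339, −0.74 in Z15303 and −0.08 in Z15408. The fitted difference between week 18 and week 12 was −0.10 (SE 0.11), with 3 of 5 animals lower, so the level at week 18 lay near that at week 12.

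**Figure D1:**
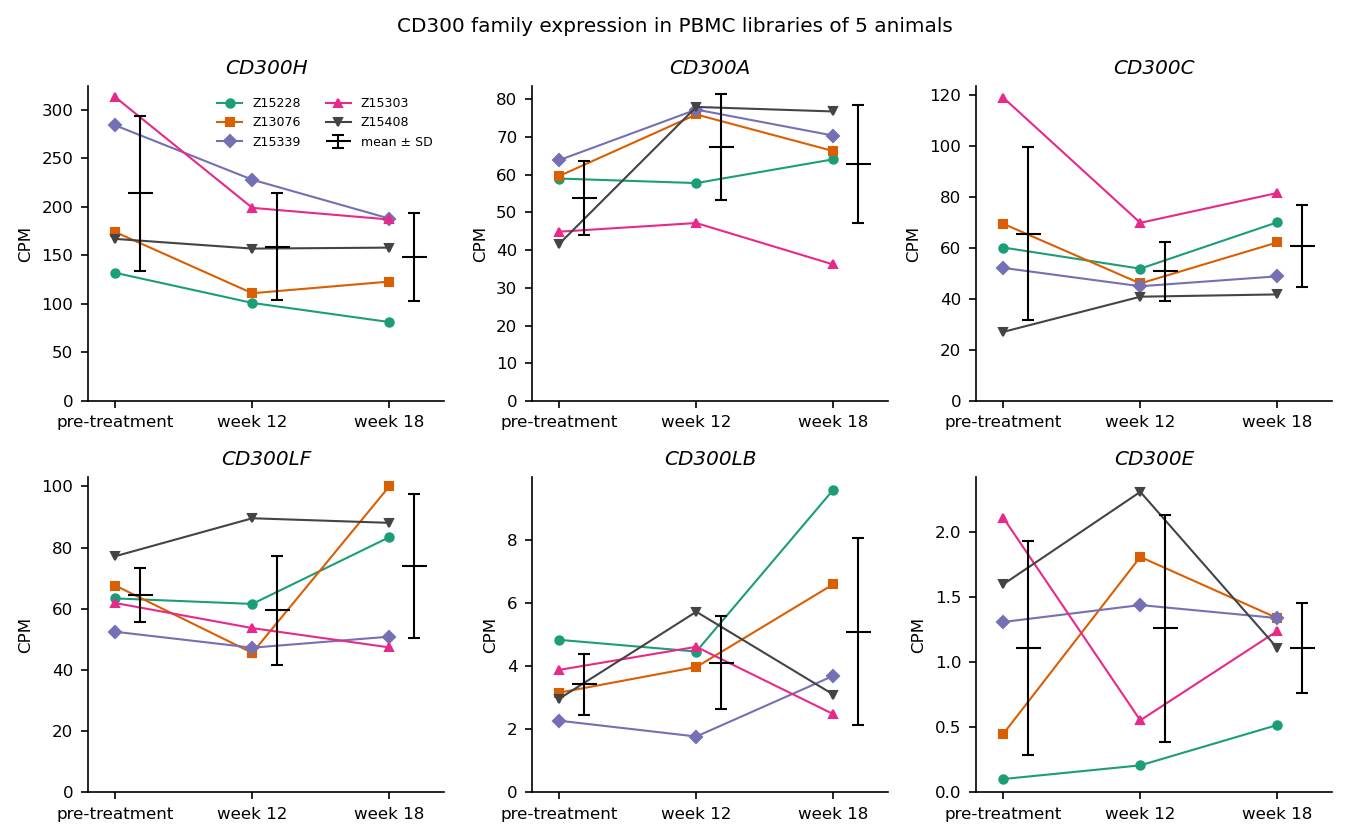
Level of each CD300 gene in CPM (vertical axis, from 0, with its own range in each panel) at the 3 time points. Each coloured line is 1 animal, and the black bar beside the points is the mean ± SD of 5 animals. The *CD300H* lines lie lower at week 12 and week 18 than before treatment in all 5 animals, while the lines of the 5 relatives cross.

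None of the 5 relatives passed an adjusted p of 0.05 in any comparison (edgeR's quasi-likelihood test, adjusted over all 12880 features). That threshold was passed by 1 feature at week 12 vs. pre-treatment (0.00776%), by 1 at week 18 vs. pre-treatment (0.00776%) and by 0 at week 18 vs. week 12 (0%). The feature passed in both comparisons was *IGKV1OR2.108*, named for an immunoglobulin kappa variable segment. At an unadjusted p of 0.05 the shares were 4.69%, 5.85% and 2.17%, the last being 279 features, and DESeq2 called 8 features at week 18 vs. week 12. Among the relatives, only *CD300A* at week 12 had an unadjusted p under 0.05, and it lay above its starting level. Of the 5 relatives, 0 were lower in 5 of 5 animals at week 12 or at week 18. Over all features these shares were 3.45% and 3.49%, so a count of 0 among 5 genes is not read as a result about them.

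*CD300A*, the inhibitory receptor of NK cells, T cells and myeloid cells, had 59.0, 59.7, 63.9, 44.9 and 41.7 CPM before treatment in animals Z15228, Z13076, Z15339, Z15303 and Z15408. At week 12 the values in this order were 57.8, 76.0, 77.3, 47.2 and 78.0 CPM. At week 18 they were 64.1, 66.3, 70.4, 36.2 and 76.8 CPM. Animal Z15408 went from the lowest level to the highest at week 12, Z15303 stayed low, and the groups overlapped. The log2 fold change was 0.30 (SE 0.14, 95% interval 0.02 to 0.59) at week 12, higher in 4 of 5 animals, with an adjusted p of 0.982 by edgeR. At week 18 it was 0.19 (95% interval −0.09 to 0.48, adjusted p = 0.899 by edgeR). Without animal Z15408 the fold change on the log2 scale was 0.17 at week 12 and 0.03 at week 18, so much of the difference rested on that animal.

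*CD300LF*, the other inhibitory member, had 63.4, 67.6, 52.5, 61.9 and 77.2 CPM before treatment in the same order of animals. At week 12 it had 61.6, 45.6, 47.3, 53.7 and 89.6 CPM, and at week 18 it had 83.4, 100, 50.9, 47.4 and 88.1 CPM. Animals Z13076 and Z15228 were higher at week 18 than at week 12, and Z15303 was lower at each later sample. The log2 fold change was −0.14 (SE 0.15) at week 12, 0.17 (SE 0.15) at week 18 and 0.30 (SE 0.15, 95% interval −0.01 to 0.62) between week 18 and week 12. The adjusted p by edgeR was 0.982, 0.909 and 1. Without animal Z13076 the values were −0.05, 0.05 and 0.10.

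*CD300C*, an activating receptor whose outer domain closely resembles that of CD300A, had 60.2, 69.5, 52.2, 119 and 27.1 CPM before treatment. At week 12 it had 51.9, 46.1, 45.0, 69.9 and 40.9 CPM, and at week 18 it had 70.1, 62.2, 48.9, 81.6 and 41.8 CPM. Before treatment Z15303 stood high and Z15408 low, and both were nearer to the other animals afterwards. The log2 fold change was −0.26 (SE 0.15, 95% interval −0.58 to 0.06) at week 12 and −0.02 (SE 0.15, 95% interval −0.34 to 0.30) at week 18, with adjusted p of 0.982 and 0.991 by edgeR. The week 12 value was −0.11 without Z15303 and −0.45 without Z15408. Between week 12 and week 18 it was higher by 0.24 (SE 0.15, adjusted p = 1 by edgeR), and this was higher in 5 of 5 animals, as were 2.99% of all features. Reads shared between *CD300A* and *CD300C* could have been left out by the counting, so both values are uncertain to that extent.

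The remaining activating members were near the limit of detection. *CD300LB* had 4.83, 3.16, 2.27, 3.88 and 2.97 CPM before treatment, 4.46, 3.97, 1.77, 4.61 and 5.72 at week 12, and 9.58, 6.59, 3.69, 2.48 and 3.10 at week 18. Animal Z15228 at week 18 was highest, with 74 counts. Its log2 fold change was 0.26 (SE 0.31) at week 12 and 0.54 (SE 0.31, 95% interval −0.11 to 1.18, adjusted p = 0.87 by edgeR) at week 18. Without Z15408 the week 12 value was 0.03. *CD300E*, a receptor of monocytes, had 0.103, 0.451, 1.31, 2.11 and 1.60 CPM before treatment, 0.208, 1.81, 1.44, 0.554 and 2.31 at week 12, and 0.518, 1.34, 1.34, 1.24 and 1.11 at week 18. At each time point Z15228 was the lowest animal, and its log2 fold change was 0.26 (SE 0.47) at week 12 and 0.10 (SE 0.48) at week 18. The 95% interval of *CD300E* at week 18, from −0.91 to 1.11, leaves room for a change in either direction at this depth.

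The intervals give the range of change that these data leave for each relative. At week 18 vs. pre-treatment the 95% interval started at −0.09 for *CD300A*, −0.34 for *CD300C*, −0.15 for *CD300LF*, −0.11 for *CD300LB* and −0.91 for *CD300E*. At week 12 vs. pre-treatment the lower bounds were 0.02, −0.58, −0.45, −0.39 and −0.74 in the same order. Without the animal as a term the intervals were wider, that of *CD300C* at week 18 starting at −0.73. These intervals are not adjusted for the number of genes. No test set them against the value of *CD300H*, since a value that selected its gene tends to overstate the difference.

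**Figure D2:**
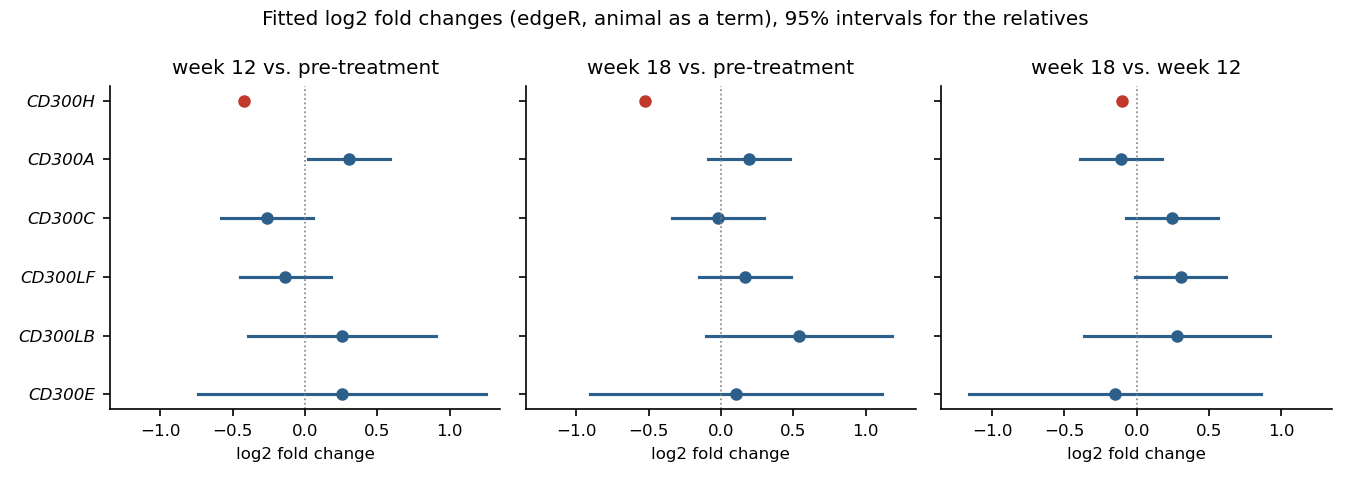
Fitted log2 fold changes (horizontal axis) of the 6 CD300 genes in the 3 comparisons, with points for the estimate and lines for the 95% interval of the 5 relatives in blue. *CD300H*, in red, has a point only because it was selected on these libraries. Of the 10 intervals of relatives against pre-treatment, only that of *CD300A* at week 12 leaves out 0, by its lower bound of 0.02.

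Within animals, the change of *CD300H* was lower than that of *CD300A* in 5 of 5 animals at week 12 and at week 18, by a mean of −0.73 ± 0.27 and −0.72 ± 0.20 (SD, n = 5) on the log2 scale. It was lower than that of *CD300LF* in 5 of 5 animals at both times, by −0.27 ± 0.15 and −0.67 ± 0.39. Against *CD300C* it was lower in 4 of 5 animals at week 12, by −0.18 ± 0.30, and in 5 of 5 at week 18, by −0.53 ± 0.29. These differences use the values that selected *CD300H*, and that selection favours a lower change of *CD300H* than of its relatives. They are a description and were not tested. At week 18 animal Z15408 had the highest change of *CD300H*, *CD300A* and *CD300C* alike, and Z15303 the lowest.

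Differences between animals made up more of the spread of each CD300 gene than differences between time points. Animals accounted for 75.3% of the variance of log2 CPM of *CD300H* and time points for 19.1%. For the relatives the animal share ran from 46.6% for *CD300LB* to 75.5% for *CD300C*, and the time share from 1.64% for *CD300E* to 14.7% for *CD300A*. The mean level differed 2.24-fold between the highest and lowest animal for *CD300H*, 2.44-fold for *CD300C* and 1.65-fold for *CD300A*. Animal Z15303 was highest for *CD300C* and lowest for *CD300A*.

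Of the family genes outside the 6, *CD300LD*, an activating member, had 27 to 676 counts per library and differed 8.4-fold between animals, with Z15408 highest and Z13076 lowest. Its log2 fold change was −0.02 (SE 0.22) at week 12 and −0.18 (SE 0.23) at week 18, with an adjusted p of 0.998 and 0.943 by edgeR. *CD300LG*, the member of endothelial cells, had 0 to 18 counts and was not tested. *FCMR*, the IgM receptor of the wider family, had log2 fold changes of −0.10 and −0.07. Of this list of 6, 2 were tested and 0 passed.

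The adaptors through which the activating receptors signal had no call, 0 of 3 in each comparison. *TYROBP*, which encodes DAP12, had a log2 fold change of 0.01 (SE 0.17) at week 12 and −0.02 (SE 0.17) at week 18. *FCER1G*, the Fc receptor gamma chain, had −0.04 and 0.03, and *HCST*, which encodes DAP10, had 0.20 and 0.17. The 95% interval of *TYROBP* at week 18 was −0.39 to 0.34.

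The enzymes of the inhibitory arm, 3 phosphatases and the kinase *CSK*, which restrains Src-family kinases, also had no call, 0 of 4. *PTPN6*, which encodes SHP-1, had a log2 fold change of −0.21 (SE 0.13) at week 12 and −0.05 (SE 0.13) at week 18. *PTPN11*, which encodes SHP-2, had −0.03 and −0.10, and *INPP5D*, which encodes SHIP-1, had −0.16 and −0.23. *CSK* had −0.06 and 0.01. The value farthest from 0 was that of *INPP5D* at week 18, with a 95% interval of −0.51 to 0.05.

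The kinases and effectors downstream of the adaptors had mostly negative log2 fold changes, some of them near 0. Of 11 tested genes 10 had a negative log2 fold change at week 12 and 10 at week 18, and 0 passed the adjusted threshold. The median was −0.115 and −0.111, against 0.00054 and −0.0046 over all 12880 features. *SYK*, the kinase that the adaptors engage, had −0.06 and −0.11 (SE 0.11 for each) and was lower in 3 of 5 animals at each time. *VAV1* had −0.0011 and −0.04. At an unadjusted p of 0.05, 2 were lower at week 12 and 3 at week 18, beside 4.69% and 5.85% of all features in either direction. *BTK*, a kinase of B cells and myeloid cells, had −0.33 (SE 0.20) and −0.59 (SE 0.21), with an adjusted p of 0.982 and 0.641 by edgeR. *PLCG2*, a phospholipase used by both, had −0.34 (SE 0.12) and −0.43 (SE 0.12), with an adjusted p of 0.769 and 0.433. *LYN*, a Src-family kinase, had −0.32 and −0.23 (SE 0.11 for each) and was lower in 5 of 5 animals at both times. Over all features the share lower in 5 of 5 animals was 3.45% at week 12 and 3.49% at week 18.

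Markers of the cell types in PBMCs were read beside these genes. All 7 tested B-cell markers were lower in 5 of 5 animals at both times, beside 3.45% and 3.49% of all features. The list median on the log2 scale was −0.86 (week 12) and −0.98 (week 18). At week 18 they ran from −0.68 for *CD79A* to −1.14 for *MS4A1*. None passed the adjusted threshold in this fit, the adjusted p of *MS4A1* at week 18 being 0.0534 by edgeR. Summed, the B-cell markers ranged from 239 to 1010 CPM before treatment, 137 to 516 at week 12 and 175 to 427 at week 18. *BTK*, *LYN* and *PLCG2* are expressed in B cells as well as in monocytes, and the part of B cells in the kinase values was not tested.

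The 11 tested classical monocyte markers had a median of −0.05 at week 12, 0.32 at week 18 and 0.38 between them, against −0.0023 over all features in the last comparison. At week 18 all 11 were above 0, from 0.00034 for *CSF1R* to 1.02 for *S100A12*, and 0 passed. *CD14*, the lipopolysaccharide co-receptor, had 0.60 (SE 0.20, adjusted p = 0.589 by edgeR) at week 18. Their summed level was 2690 to 4500 CPM before treatment, 2670 to 4160 at week 12 and 3160 to 5890 at week 18. By animal, their mean change at week 18 was 0.66 in Z15228, 0.61 in Z13076, 0.72 in Z15339, −0.0010 in Z15303 and −0.11 in Z15408, so the higher level was that of 3 animals. No classical marker in the table was at 0.

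The 8 tested non-classical monocyte markers had a median of −0.21 at week 12, −0.12 at week 18 and 0.03 between them, and 0 passed. *MS4A7* was lowest, at −0.45 (SE 0.16) at both times, and *VMO1* was highest, at 0.07. *CX3CR1* had 0.00035 and 0.02. Their summed level was 892 to 1920 CPM before treatment, 918 to 1800 at week 12 and 1150 to 1670 at week 18. By animal, the mean change at week 18 was −0.40 in Z15228, −0.48 in Z13076, −0.08 in Z15339, −0.28 in Z15303 and 0.57 in Z15408. Animal Z15408, in which *CD300H* was closest to its start, was the only animal of the 5 with a positive mean change of these markers at week 18. At week 12 the mean change was −0.36, −1.18, 0.06, −0.11 and 0.55 in the same order of animals, so Z15339 was then also above 0 while its *CD300H* change was −0.32. *SIGLEC10* is also in the list of other paired receptors. The place of Z15408 was not particular to the non-classical list. It also had the highest mean change at week 18 of the NK-cell markers (0.53), T-cell markers (0.33) and adaptors (0.63), and the lowest of the classical markers. Its pre-treatment library had the most features detected, 16556, and the lowest pre-treatment *TYROBP* (197 CPM) and *HCST* (91.3 CPM). All changes of this animal from pre-treatment rest on that 1 library.

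**Figure D3:**
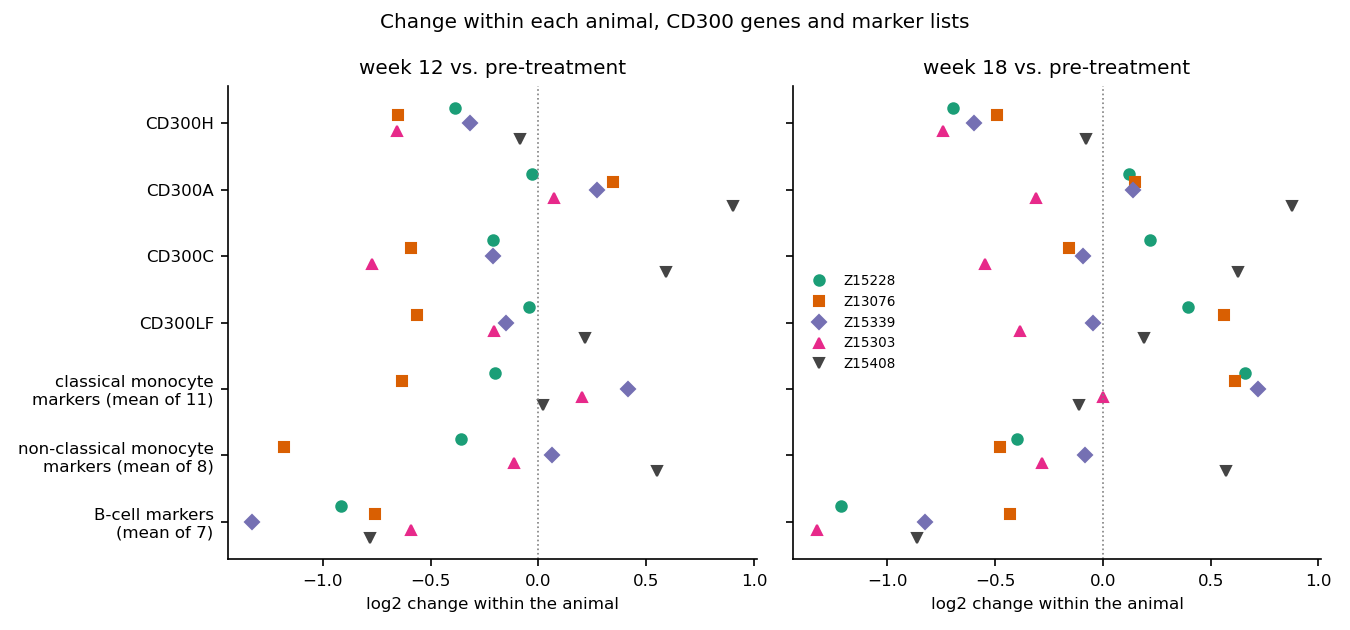
Log2 change from pre-treatment (horizontal axis) in each animal, at week 12 on the left and week 18 on the right, for 4 CD300 genes and for the mean of 3 marker lists. Each symbol is 1 animal. *CD300H* and the B-cell markers lie left of 0 in all 5 animals at both times. Z15408 lies to the right of the other 4 for the non-classical markers, and also for *CD300H*, *CD300A* and *CD300C*.

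Across the 15 libraries the level of *CD300H* was set beside the mean level of the gene lists. Its Pearson r with the mean of the non-classical list was 0.729, and 0.592 after each animal's mean was subtracted. With the classical list r was −0.483 and −0.302. With the kinase list r was 0.822 and 0.927. With the B-cell list it was 0.054 and 0.808. When the time point means were subtracted too, a step added after these values were seen, r was 0.777 with the non-classical list, 0.011 with the classical list, 0.884 with the kinase list and 0.0901 with the B-cell list. With the classical and B-cell lists r was near 0 in that last form. Subtracting time point means removes any shift over time that a gene and a list share. *CD300H* and the B-cell markers were both lower at both later time points. The last form therefore cannot show what part B cells had in the *CD300H* values, which was not tested. The non-classical and kinase lists were not alone in lying above 0. In the same 3 forms r was 0.447, 0.559 and 0.615 for the plasmacytoid dendritic cell list. It was 0.509, 0.598 and 0.204 for the inhibitory enzymes and 0.125, 0.13 and 0.594 for the adaptors. For the NK-cell list it was −0.183, 0.236 and 0.569. These 15 points are 3 libraries from each of 5 animals and share depth and the course of time, so r is a description with no p.

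The relatives were set beside the same lists. *CD300LF* had an r of 0.813 with the classical monocyte markers, 0.787 with animal means subtracted and 0.746 with time point means subtracted too. *CD300LB* had 0.709, 0.653 and 0.617 with the same list. *CD300A* had 0.817, 0.597 and 0.627 with the NK-cell markers, and *CD300C* had 0.569, 0.665 and 0.66 with the non-classical monocyte markers. *CD300C* also had 0.699, 0.477 and 0.583 with the adaptors. *CD300LD* had −0.349 with the conventional dendritic cell markers over all libraries and 0.848 with animal means subtracted. It had 0.325, 0.786 and 0.791 with the non-classical monocyte markers. These are the same 15 libraries, and the difference between any of these r values was not tested.

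**Figure D4:**
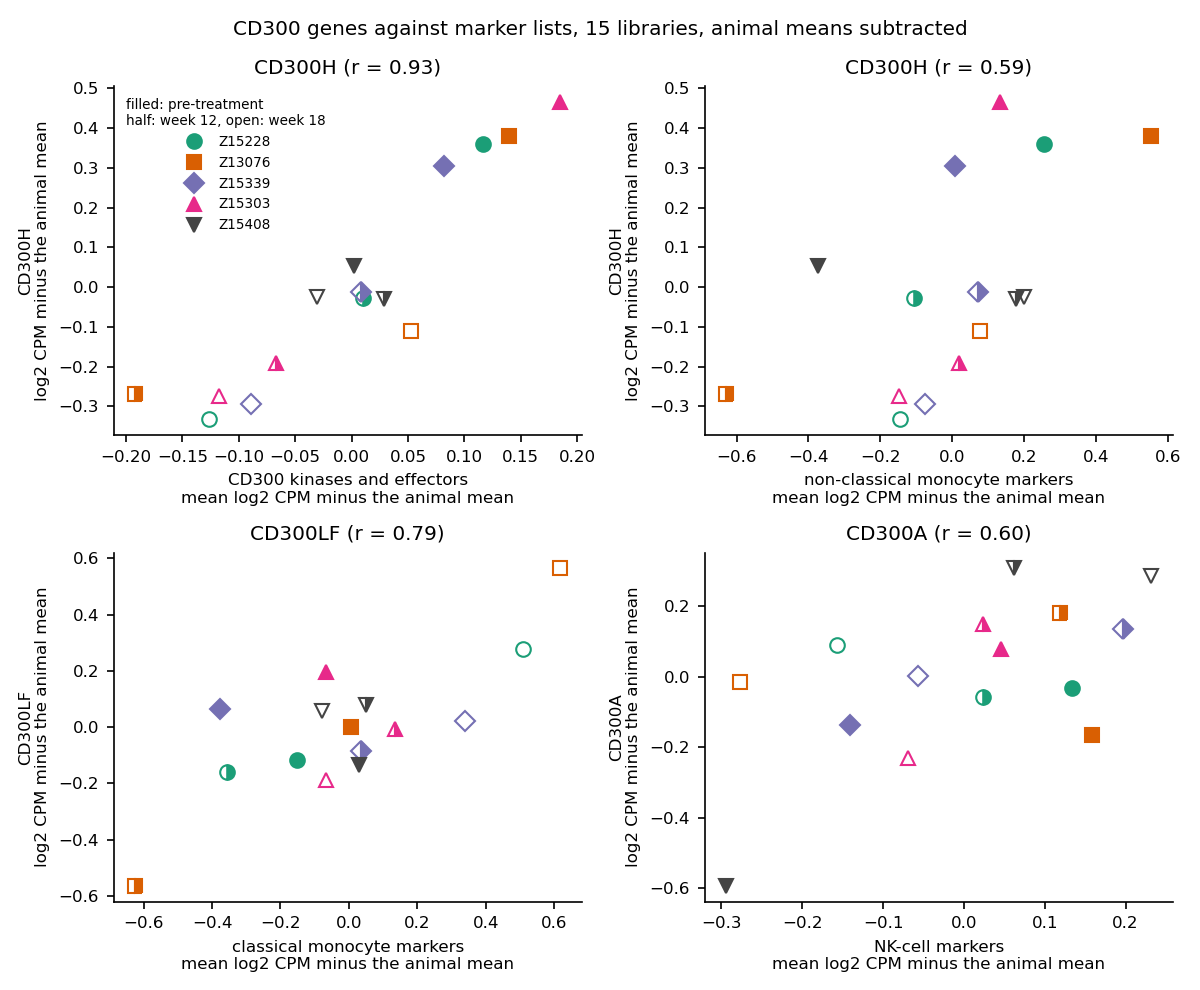
Log2 CPM of *CD300H*, *CD300LF* and *CD300A* (vertical axes) against the mean log2 CPM of a gene list (horizontal axes), both with the animal mean subtracted, in 15 libraries. Colour and shape mark the animal, and filled, half-filled and open symbols mark pre-treatment, week 12 and week 18. The r values are 0.93 and 0.59 for *CD300H* with the kinase and non-classical lists, 0.79 for *CD300LF* with classical markers and 0.60 for *CD300A* with NK-cell markers.

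Between members, r with animal means subtracted was −0.202 for *CD300H* with *CD300A*, 0.439 with *CD300C* and 0.117 with *CD300LF*. With time point means subtracted too these became 0.615, 0.746 and 0.468. For *CD300A* with *CD300C*, which resemble each other in sequence, the values were 0.342 and 0.784. For *CD300LB* with *CD300LF* they were 0.603 and 0.633. Over all libraries *CD300H* and *CD300LB* had an r of −0.68.

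Among the 10773 tested features with a gene symbol, the 5 with a log2 CPM most like *CD300H* over 15 libraries were *TRIM47* (r = 0.895), *OASL* (0.886), *GUCY1B1* (0.884), *KCTD14* (0.875) and *SIGLEC9* (0.864). With animal means subtracted they were *SP140* (0.91), *CYB561A3* (0.909), *SLCO4A1* (0.906), *AMDHD1* (0.903) and *ITGAX* (0.903). This form keeps differences between time points, and *CD300H* was selected on such a difference, so it favours other genes that were lower later. All 5 had negative log2 fold changes at both times, from −0.78 and −0.81 for *SP140* to −0.37 and −0.48 for *ITGAX*. *SIGLEC9* is an inhibitory receptor of monocytes, *ITGAX* encodes CD11c, an integrin of myeloid cells and dendritic cells, and *SP140* is a nuclear body protein of leukocytes. For *CD300LF* the genes most alike over all libraries were *PLBD1* (0.922), *APLP2* (0.907), *SLC7A7* (0.901), *CSF3R* (0.893) and *CPPED1* (0.859). *CSF3R* is the receptor for granulocyte colony-stimulating factor. With animal means subtracted they were *FAAH* (0.954), *CTSK* (0.943), *PSAP* (0.938), *SLC7A7* (0.938) and *FES* (0.917). *CTSK* and *PSAP* encode lysosomal proteins.

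For *CD300A* the genes most alike over all libraries were *DDX56* (0.949), *UTP4* (0.898), *STK25* (0.891), *ABCF3* (0.889) and *CD247* (0.889), the last being the zeta chain of the T-cell receptor complex, which NK cells also use. For *CD300C* they were *CORO1B* (0.98), *MAP1LC3A* (0.891), *FKBP1A* (0.877), *EXOSC1* (0.87) and *PAXX* (0.87). *CORO1B* also led for *CD300C* with animal means subtracted (0.94). *CD300LB* and *CD300E*, with few counts, reached at most 0.823 (*FAM89A*) and 0.844 (*SHROOM4*) over all libraries. These are the highest of 10773 values over 15 points, and each points to no shared function.

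Of the other paired receptors of myeloid cells, 24 of 37 listed genes were tested and 0 passed. Their median was −0.105 at week 12, 0.092 at week 18 and 0.191 between them. At an unadjusted p of 0.05, 5 were lower and 1 higher at week 12, 0 lower and 5 higher at week 18, and 0 lower and 6 higher at week 18 vs. week 12. Over all 12880 features these counts were 419 and 185, 487 and 267, and 130 and 149, or 4.69%, 5.85% and 2.17% in either direction. At week 18 the highest were *TREM2*, a lipid receptor, at 0.94 (SE 0.31), *CLEC4E*, a receptor for microbial glycolipids, at 0.74 (SE 0.35) and *CD33*, an inhibitory sialic acid receptor, at 0.53 (SE 0.16). Of the 24 tested, 6 were higher in 5 of 5 animals at week 18, *CD33* and *CLEC4E* among them, beside 3.04% of all features. The lowest were *CLEC5A*, at −0.34 (SE 0.43), and *SIGLEC9*, at −0.32 (SE 0.16). *MILR1*, an inhibitory receptor of mast cells, had −0.52 at week 12 and 0.56 from week 12 to week 18, with an adjusted p of 0.651 and 1 by edgeR. Over all libraries, with animal means subtracted and with time point means subtracted too, *CD300LF* had an r of 0.66, 0.826 and 0.771 with this list, and *CD300H* had −0.143, 0.0121 and 0.438.

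The genes that lie beside the CD300 cluster in the human genome had no call, 0 of 8 tested, with a median of 0.07 at week 12 and 0.11 at week 18. *RAB37*, a small GTPase gene that overlaps *CD300LF* in the human genome, had 0.16 (SE 0.12) at week 12, higher in 5 of 5 animals, as were 2.23% of all features, and 0.23 (SE 0.12) at week 18. The strand used for counting was not stated, so reads of *RAB37* and *CD300LF* may not be told apart where they overlap.

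The lists of other cell types had no call either. The median log2 fold change at week 12 and week 18 was −0.10 and −0.06 for 8 conventional dendritic cell markers, −0.06 and −0.44 for 5 plasmacytoid dendritic cell markers, and −0.24 and 0.32 for 8 neutrophil and mast cell markers. It was 0.06 and 0.08 for 9 T-cell markers, 0.10 and −0.08 for 8 NK-cell markers, and 0.12 and 0.04 for 6 platelet and red cell markers. *TCF4*, a transcription factor of plasmacytoid dendritic cells and B cells, was lowest of its list, at −0.59 and −0.61. It was lower in 5 of 5 animals at both times, as were 3.45% and 3.49% of all features. *CLEC10A*, a lectin of dendritic cells, was highest of its list at week 18, at 0.73 (SE 0.33).

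Animals Z15339, Z15303 and Z15408 shared the dates in their library names, and Z15228 and Z13076 had their own. The mean log2 change of *CD300H* was −0.35 and −0.47 (week 12, week 18) in the former 3 and −0.52 and −0.59 in the other 2. For *CD300LF* at week 18 it was −0.08 in the former and 0.48 in the latter, and for *CD300LB* 0.04 and 0.98. The mean of *CD300H* was below 0 within both date groups, and the sign of *CD300LF* at week 18 differed between them. What part the dates had was not tested.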

How the data were processed

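PBMC RNA was amplified with SMART-Seq v4, made into libraries with Nextera XT and sequenced by the authors, who aligned reads with STAR 2.7.9a to the *Macaca nemestrina* annotation of Ensembl release 95 and deposited raw read counts per gene from STAR's gene counting. The counts were checked to be whole numbers. The strand setting was not stated. Libraries were grouped by the labelled time point and paired by the labelled animal. Libraries of 1 time point differed by 24.6 to 78.2 (chi-square per feature, 30 pairs), so none was a duplicate.

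Normalization and tests used R 4.3.3 and edgeR 4.0.16 (TMM, filterByExpr with a minimum count of 10, quasi-likelihood F test) on 15 libraries and 12880 features, with time point and animal as terms. The p-values were adjusted by Benjamini-Hochberg over all features. The animal was a term because libraries were paired by subject. Deviations of libraries from the time point mean had a mean correlation of 0.551 within animals (15 pairs, 0.351 to 0.683) and −0.137 between animals (60 pairs). Standard errors were taken from the size of the log2 fold change and the F statistic. CPM used TMM-scaled library sizes, and log2 CPM a prior count of 2. DESeq2 1.42.0 and limma 3.58.1 were alternatives, as were no animal term, other scaling, no filter and leaving out each animal. The procedure was tested on simulated data. The members and the gene lists were chosen with earlier results of these data known. Genes named are the 6 members, their adaptors and phosphatases, the extremes and some other members of the lists, and the 5 genes most alike. Of the 6 members, 1 was matched by symbol in the RefSeq gene table. No sequences are shown.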

Additional observations from a re-analysis of the deposited data

Results flagged for a closer look

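In 1 of 21 groups of 5 libraries examined, 1 library lay apart from the others. *CD300E* at week 18 was 0.518 CPM in animal Z15228, which is 4 counts, against 1.11 CPM in the nearest animal. The gap was 0.714 of the whole range, just past the critical value of 0.71 for 5 samples, and chance passes about 1 in 20 groups. The same animal had the lowest *CD300E* level at all 3 time points.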

How the results depend on the processing

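Under every alternative run, 0 CD300 relatives were called, and *CD300H* stayed lower at week 12 (−0.50 to −0.35 with 1 animal left out) and week 18 (−0.63 to −0.46). The number of features called depended on the setting, and the cause was not tested. With no replicate block (the animal term and so the pairing left out) it was 0 and 0 at week 12 and week 18. With DESeq2 it was 27, 50 and, for week 18 vs. week 12, 8. With no filter on low counts it was 83, 136 and 5, and with library size alone 10 at week 18. Leaving out 1 animal gave 0 to 6 at week 12 and 0 to 17 at week 18, the highest without Z13076 (6 and 17), 3 at week 18 without Z15408, and 0 for the other omissions. Some fold changes of the relatives turned sign. With 1 animal left out, *CD300E* ran from −0.12 to 0.76 at week 12, −0.18 to 0.45 at week 18 and −0.32 to 0.16 between them, and *CD300C* at week 18 from −0.15 to 0.13. In the 3 animals of shared dates, *CD300E* was −0.33 at week 12 and −0.36 at week 18, *CD300LF* −0.079 at week 18 and −0.032 from week 12 to week 18, and *CD300LB* −0.23 in that last comparison. In the other 2 animals, *CD300C* at week 18 (0.030) and *CD300E* from week 12 to week 18 (0.20) turned sign. There *CD300C* from week 12 to week 18 (0.43) and *CD300E* at week 18 (1.18) kept their sign and were larger than in the main fit. Date groups gave values with no test, so no features were called in them. No scaling moved the median of all features by over 0.1. Depth limits *CD300E* and *CD300LB* most.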
